A study of Mus musculus with 16 samples.

Results

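The comparison described here is of calcified thalamus from mice with 2 copies of the Pdgfb retention allele (ret/ret) with the same region of control mice that carry 1 copy (ret/wt). It takes 8 of the 16 libraries of the series, 4 per genotype, chosen by their genotype and brain region labels, and was read across all genes. All animals were C57BL/6 mice aged 4 months, so the controls also carry 1 retention allele and no library came from an animal without it. The allele is present in every cell of the animal and is not limited to the brain. Per the labels, brain calcifications are autofluorescent, and those of ret/ret animals were cut out under a stereomicroscope, while control tissue was taken from the matching place. A ret/ret thalamus library is therefore both a genotype and a dissected lesion, and the effects of genotype, lesion and dissection cannot be told apart. Cortex, which the labels call not prone to calcification, was taken from the same 8 mice and is given beside the thalamus values where they bear on each other.

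PDGF-B is a growth factor that endothelial cells secrete to recruit pericytes, the mural cells wrapped around capillaries. The retention motif is the stretch of the protein that binds it to matrix close to the endothelium. Without the motif the factor is held less well and brain capillaries carry fewer pericytes. Loss-of-function variants in PDGFB or its receptor cause primary familial brain calcification in people, in which mineral nodules form along small vessels of the deep brain. Values of Pdgfb itself are not analysed here.

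The 8 thalamus libraries held 14673593 to 21776759 estimated counts each. The share of counts from mitochondrially encoded genes was 4.24% to 8.8% in ret/wt and 5.87% to 12.07% in ret/ret, so the ranges overlapped. The first 2 principal components of log2 level held 29.2% and 22.1% of the variance, and neither parted the genotypes. Thalamic marker genes were present in all 8 libraries but at uneven levels. Slc17a6, the vesicular glutamate transporter of thalamic projection neurons, ran from 267 to 486 CPM in ret/wt and from 182 to 574 CPM in ret/ret, where CPM is the count scaled to a common library total. These marker levels and those of Ddx3y carry no further scaling factor. The transcription factor Tcf7l2 ran from 66.3 to 154 CPM in ret/wt and from 18.5 to 225 CPM in ret/ret. The mean log2 CPM of 20 thalamic neuron genes was 4.5 to 7.04 in ret/wt and 4.22 to 7.15 in ret/ret, so the pieces held different amounts of thalamic neuron RNA within each genotype. Replicate 1 of ret/ret had the highest score of the 8 libraries for endothelial, interferon, erythrocyte and choroid plexus genes. Replicate 3 of ret/wt and replicate 2 of ret/ret were the only thalamus libraries with reads of the Y-linked Ddx3y, at 52.5 and 67.3 CPM, and the labels give no sex. In bulk tissue, fewer cells of a type and less RNA per cell cannot be told apart.

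In thalamus 14767 genes were tested by quasi-likelihood in edgeR. After Benjamini-Hochberg adjustment 0 of them were under 0.05, and the lowest adjusted p of the edgeR test was 0.216. None of the differences below is a call of that test. By the unadjusted p of 0.05, 451 genes (3.05%) were higher and 130 (0.88%) lower in ret/ret. DESeq2 gave 37 genes with an adjusted p under 0.05, 31 higher and 6 lower, while limma-voom and the robust quasi-likelihood fit gave 0. In 283 genes (1.92% of those tested) all 4 ret/ret libraries lay above all 4 ret/wt libraries, and in 119 genes (0.806%) all 4 lay below. These 402 non-overlapping genes, 70.4% of them higher, are the set whose functions are described here. With 4 libraries against 4, some genes part completely by chance. Neither the higher nor the lower count was shown to exceed what chance would give. All 37 genes called by DESeq2 were among them.

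The non-overlapping genes were mostly protein-coding (384 of 402). Their median log2 fold change was 0.80 among the higher and -0.55 among the lower, against a median of -0.02 over all genes. More than a doubling was seen in 100 of the higher genes, and a drop of more than that factor in 28 of the lower. Among the 3692 tested genes of lowest mean level 121 were higher and 38 lower, and among the 3689 of highest mean level 37 and 19. A gene was tested only if at least 4 libraries passed the filter on low counts. Where every library of 1 genotype falls below that filter, every library of the other must pass it. The non-overlap of such a gene largely follows from the filter, and such genes were not counted apart. Of the 38 tested genes of the homeostatic and disease-associated microglia lists 14 were higher without overlap, beside 1.92% of all tested genes. The other 269 of the 283 higher genes lie outside these lists, which do not hold every gene of microglia. With 1 library fewer the groups are easier to part, and the counts became 959 higher and 621 lower without ret/wt replicate 4 and 621 higher and 429 lower without ret/ret replicate 2.

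**Figure D1:**
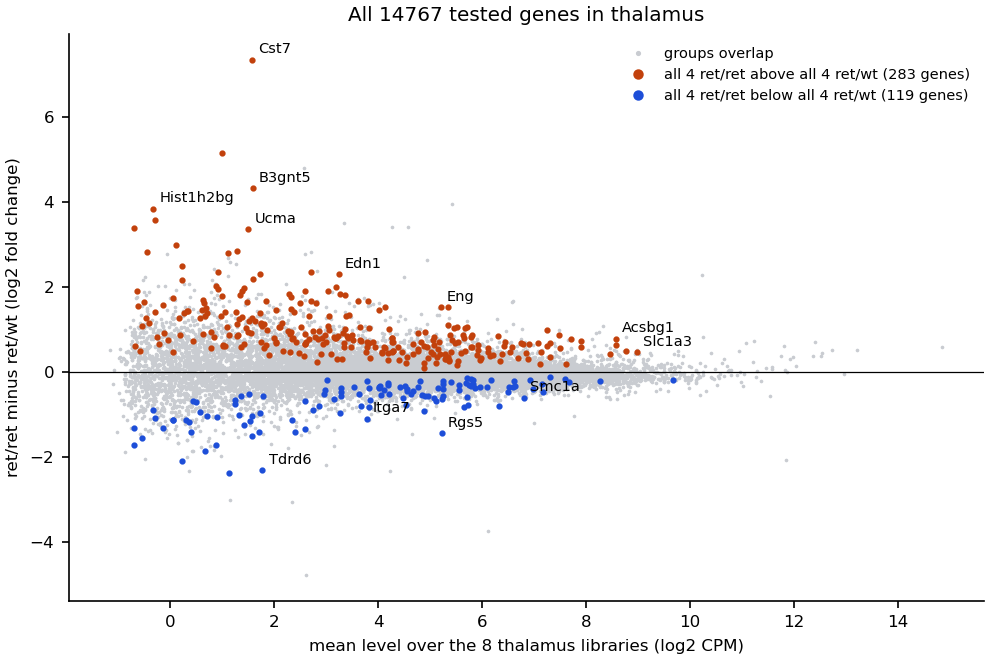
Each point is 1 of the 14767 genes tested in thalamus, with its mean level over the 8 libraries in log2 CPM on the x axis and its log2 fold change (ret/ret minus ret/wt) on the y axis. Orange points are the 283 genes in which all 4 ret/ret libraries lay above all 4 ret/wt libraries and blue points the 119 in which all 4 lay below. Most of the large differences sit at low mean levels, and Cst7, B3gnt5 and Hist1h2bg lie highest among the labelled genes. Each of these genes passed the filter on low counts only through ret/ret libraries.

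Lists of functional groups give these genes an order. The 50 lists written first, chosen with earlier results of these data known, held 43 of the higher and 8 of the lower genes. A further 9 lists, written after the values were seen, brought this to 91 and 21. Neither set of lists is independent evidence of a theme. The plot of list shares gives each list with at least 1 non-overlapping member. Shares are set beside the 1.92% and 0.806% of all tested genes.

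**Figure D2:**
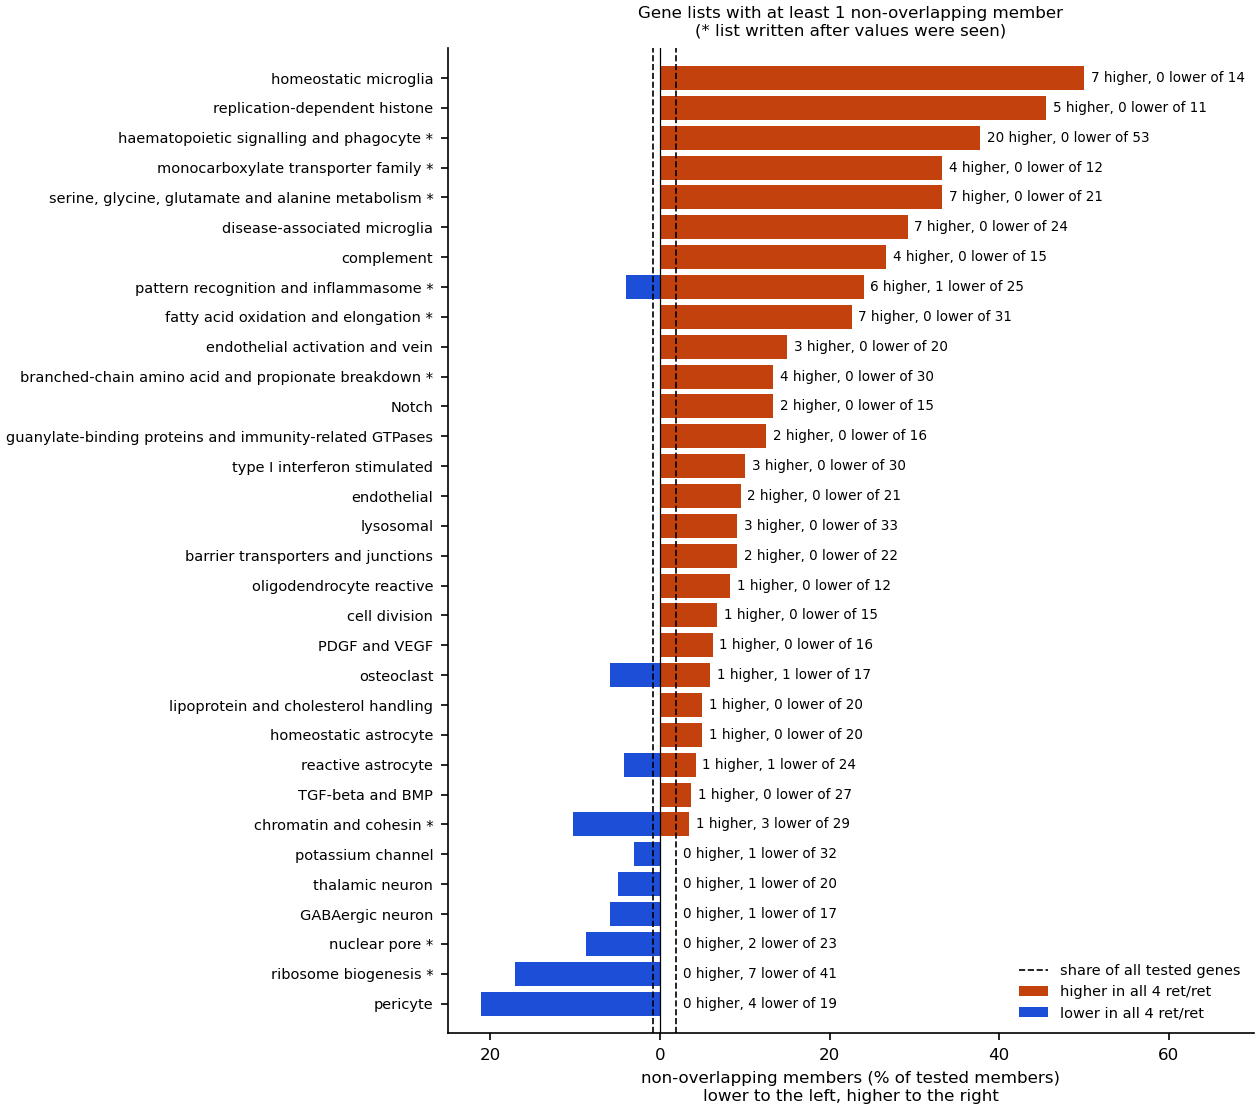
Bars give the share of each list's tested genes that did not overlap between genotypes, higher in ret/ret to the right (orange) and lower to the left (blue), in percent of tested members, with the counts written beside them. Dashed lines mark the shares over all tested genes, 1.92% and 0.806%, and a star marks the lists written after values were seen. Homeostatic microglia (7 of 14), replication-dependent histone (5 of 11) and haematopoietic signalling genes (20 of 53) have the longest bars to the right, and pericyte (4 of 19) and ribosome biogenesis genes (7 of 41) the longest to the left.

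At the vessel wall, the non-overlapping pericyte genes were lower and the endothelial ones higher in ret/ret thalamus, while the scores of both lists overlapped between genotypes. The smooth muscle and fibroblast lists held no non-overlapping gene. All 19 tested pericyte genes had a log2 fold change below 0, with a median of -0.69, and 4 did not overlap (21.1%). Rgs5, a regulator of G-protein signalling that marks brain pericytes (chromosome 1, 169655501 to 169695813 in GRCm38), stood at 53.6, 69.0, 47.7 and 46.4 CPM in ret/wt replicates 1 to 4. It stood at 18.4, 19.9, 18.8 and 23.6 CPM in ret/ret replicates 1 to 4. The ret/ret values lay close together, and the log2 fold change was -1.43 ± 0.19 (SE).

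Kcnj8, the pore subunit of the ATP-sensitive potassium channel of pericytes, ran from 2.06 to 3.51 CPM in ret/wt and from 0.232 to 1.41 CPM in ret/ret. P2ry14, a receptor for UDP-sugars, was at 2.06, 1.62, 8.92 and 1.65 CPM in ret/wt and at 1.41, 0.278, 0.549 and 0.472 CPM in ret/ret. Its groups did not overlap, but 1 ret/wt library (replicate 3) was far above the other three. Cox4i2, a respiratory chain subunit found in mural cells, ran from 1.41 to 3.64 CPM in ret/wt and from 0.525 to 1.36 CPM in ret/ret. Replicate 1 of ret/ret had the highest pericyte score of its group, and without it the list's median was -1.37. The 12 smooth muscle genes had a median of -0.13 and the 19 perivascular fibroblast genes one of -0.09, each with 0 non-overlapping genes. The fibroblast median was -1.07 without ret/ret replicate 1 and 0.34 without ret/wt replicate 4, and that of smooth muscle was -0.27 and 0.53, so neither list had a stable direction.

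All 21 tested endothelial genes had a log2 fold change above 0, with a median of 0.54, and 2 did not overlap (9.5%). Eng, the endothelial co-receptor for BMP and TGF-beta ligands (chromosome 2, 32646595 to 32682669), was at 19.3, 16.6, 12.6 and 26.9 CPM in ret/wt and at 81.9, 33.2, 55.4 and 48.3 CPM in ret/ret. Its log2 fold change was 1.54 ± 0.31 (SE). Clec14a, a C-type lectin of growing vessels, ran from 2.08 to 8.45 CPM in ret/wt and from 10.3 to 35.1 CPM in ret/ret. The endothelial median was 0.16 without ret/ret replicate 1, a library whose endothelial score of 5.10 stood above 4.01 to 4.41 in the other three.

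Edn1, which encodes the vasoconstrictor endothelin (chromosome 13, 42301476 to 42307990), was at 2.87, 2.57, 2.87 and 4.19 CPM in ret/wt and at 22.7, 17.1, 9.34 and 12.9 CPM in ret/ret. The lowest ret/ret library stood at more than double the highest ret/wt library, and the log2 fold change was 2.31 ± 0.33 (SE). Fmo2, a flavin monooxygenase, was at 1.93, 2.79, 3.42 and 6.18 CPM in ret/wt and at 17.6, 21.9, 6.19 and 11.7 CPM in ret/ret, so its ret/ret replicate 3 all but touched ret/wt replicate 4. Cd93, a receptor of activated endothelium, ran from 7.58 to 10.3 CPM and from 10.9 to 22.1 CPM. These 3 were the non-overlapping members of the 20 endothelial activation genes, whose median was 0.20 and was -0.01 without ret/ret replicate 1.

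Among 22 barrier genes, 2 amino acid transporters of the endothelium were higher. Slc7a5, the large neutral amino acid transporter, ran from 52.1 to 64.2 CPM in ret/wt and from 73.0 to 104 CPM in ret/ret. Slc38a5, a glutamine and serine transporter, ran from 1.28 to 3.09 CPM and from 3.24 to 6.59 CPM. Pdgfd, another ligand of the PDGF family, was at 5.96, 8.31, 5.68 and 6.32 CPM in ret/wt and at 13, 9.22, 11.7 and 12.2 CPM in ret/ret. It was the only non-overlapping gene of 16 in the PDGF and VEGF list. In the Notch list the 2 non-overlapping genes of 15 were Nrarp and Hey2, both targets of the pathway, with log2 fold changes of 0.46 ± 0.18 and 0.44 ± 0.26 (SE).

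**Figure D3:**
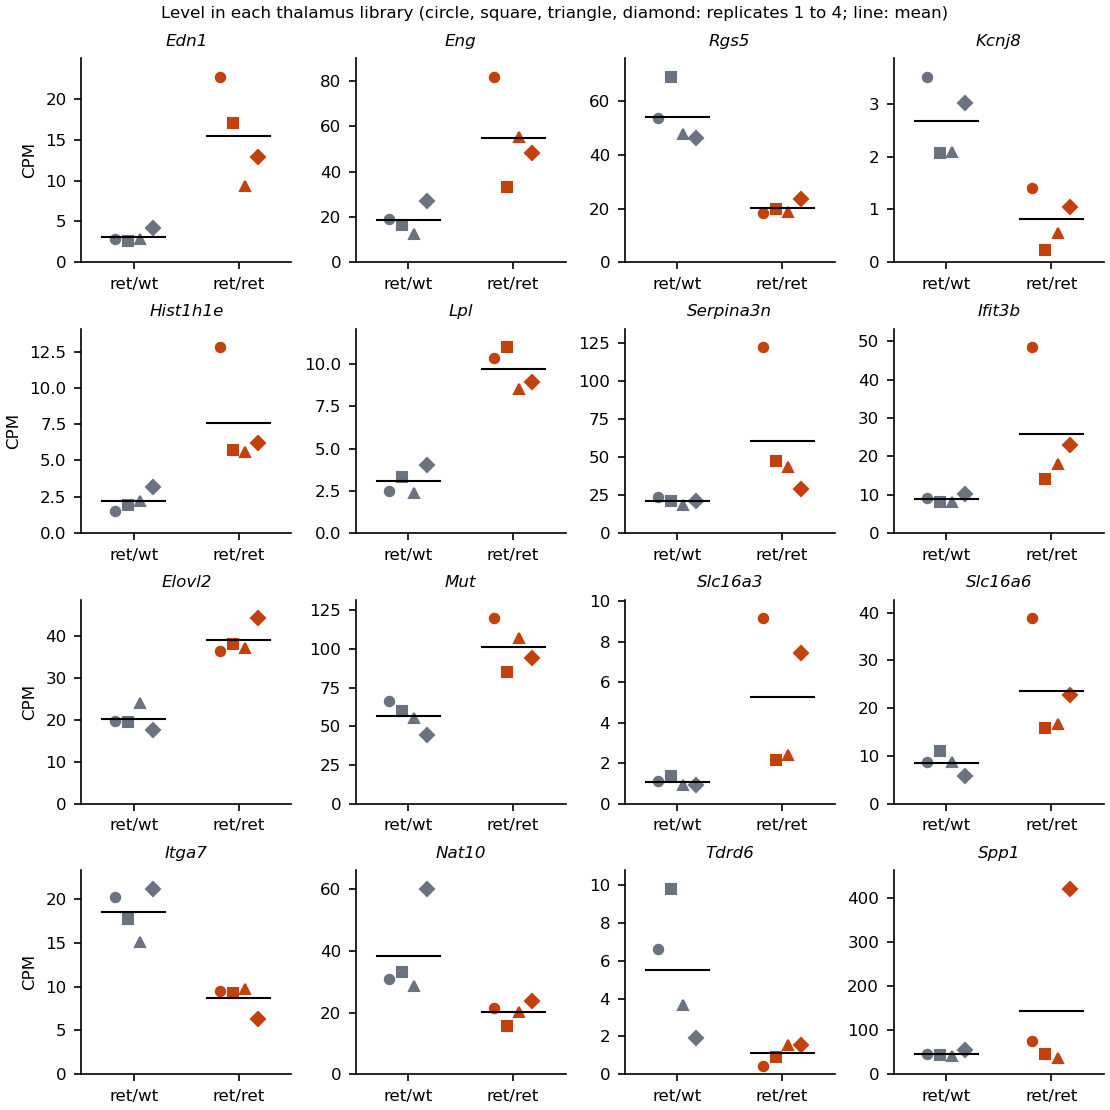
Points give the level of 16 genes in CPM in each thalamus library, ret/wt in grey and ret/ret in orange, with a marker shape per replicate number and a line at each group's mean. Edn1, Lpl and Elovl2 are parted widely, Serpina3n and Ifit3b are led by ret/ret replicate 1, and Spp1 is high in ret/ret replicate 4 alone, at 420 CPM.

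Replication-dependent histone genes had the largest median of any list, 1.64 over 11 tested genes, all of them above 0. These genes encode the core and linker histones packed onto new DNA, and 5 of the 11 did not overlap (45.5%). Their mRNAs mostly end in a stem-loop and lack a poly(A) tail, and these libraries were made from poly(A)-enriched RNA. Hist1h1e, a linker histone (chromosome 13, 23620629 to 23622558), was at 1.54, 1.95, 2.20 and 3.16 CPM in ret/wt and at 12.8, 5.75, 5.59 and 6.19 CPM in ret/ret. Hist1h2ac ran from 0.600 to 2.13 CPM in ret/wt and from 3.41 to 6.45 CPM in ret/ret. Hist1h4h ran from 0.300 to 0.794 CPM and from 1.95 to 5.27 CPM. Hist2h2aa1 ran from 2.13 to 4.24 CPM and from 4.44 to 13.7 CPM. Hist1h2bg had 1 to 2 counts in each ret/wt library and at least 13 in each ret/ret library. It passed the filter on low counts only through ret/ret libraries. Its non-overlap, counted in the 5 of 11, therefore largely follows from the filter. Copies of these genes are near-identical, so counts may be split between them. Counting every tested gene with a Hist symbol, 8 of 17 were higher and 0 lower (47.06%).

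Markers of dividing cells had smaller differences. Of 15 cell division genes 1 did not overlap (Tyms, thymidylate synthase), and the list's median was 0.33 and -0.03 without the 2 animals with Y-linked reads. Hmgb2, a chromatin protein outside the lists and named after its values were seen, was at 1.63, 4.41, 2.99 and 4.53 CPM in ret/wt and at 18.7, 7.37, 6.14 and 9.39 CPM in ret/ret. Without ret/ret replicate 1 the histone median was 1.3. Mitochondrially encoded genes had a median of 0.42 with 0 of 12 non-overlapping. The part of RNA quality in the histone values was not tested.

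Genes of myeloid cells outside the microglia lists formed the largest named group. A list of 53 haematopoietic signalling and phagocyte genes, written after values were seen, held 20 higher and 0 lower genes (37.7%), with a median of 0.71. They include the tyrosine kinases Syk and Lyn, the adaptor and exchange factors Vav1 and Dock2, the inositol phosphatase Inpp5d and the NADPH oxidase subunit Ncf1. Slc2a5, a fructose transporter that microglia carry, was at 3.30, 2.73, 1.96 and 3.09 CPM in ret/wt and at 11.2, 6.12, 7.09 and 5.46 CPM in ret/ret. Adgre1, the macrophage antigen F4/80, was at 5.53, 5.41, 5.68 and 5.29 CPM in ret/wt and at 11, 12.7, 7.14 and 9.18 CPM in ret/ret. Ly86, the partner of the receptor CD180, ran from 7.71 to 15.7 CPM and from 19.0 to 35.3 CPM. The score of the list was 1.77 ± 0.10 in ret/wt and 2.48 ± 0.33 in ret/ret (SD, n = 4), with 2.97 in ret/ret replicate 1 and 2.26 to 2.38 in the other three.

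Pattern recognition genes, also listed after values were seen, held 6 higher and 1 lower among 25. The endosomal nucleic acid sensors Tlr9 and Tlr13 were higher together with Unc93b1, the protein that carries them to endosomes, and Slc15a3, a peptide and histidine transporter of endolysosomes. Slc15a3 was at 0.985, 0.669, 0.733 and 1.72 CPM in ret/wt and at 4.05, 4.54, 2.65 and 5.09 CPM in ret/ret. Tlr13 ran from 1.51 to 2.57 CPM and from 3.29 to 6.26 CPM. Of the inflammasome genes, Naip5 ran from 0.428 to 1.3 CPM and from 1.60 to 2.54 CPM, and Casp1 from 0.300 to 0.756 CPM and from 1.25 to 1.98 CPM. Naip5 has close paralogs with which reads could be shared. Nod2, a cytosolic sensor of bacterial peptides, was lower, at 1.5 to 1.71 CPM in ret/wt and 0.649 to 1.25 CPM in ret/ret.

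Within the microglia lists themselves 7 of 14 homeostatic and 7 of 24 disease-associated genes were higher. Among them the lipoprotein lipase gene Lpl stood out for its tight groups, at 2.48, 3.29, 2.38 and 4.05 CPM in ret/wt and 10.4, 11, 8.54 and 8.97 CPM in ret/ret, a log2 fold change of 1.67 ± 0.28 (SE). Cst7, which encodes the protease inhibitor cystatin F, had 0 counts in 3 ret/wt libraries and 2 in the fourth, and stood at 12.1, 6.58, 3.25 and 0.735 CPM in ret/ret. Cst7 and Itgax, another of the higher disease-associated genes, passed the filter on low counts only through ret/ret libraries. Their non-overlap largely follows from the filter. Clec7a, the beta-glucan receptor, ran from 0.275 to 0.917 CPM in ret/wt and from 1.52 to 6.63 CPM in ret/ret. Trem2, the lipid receptor named in the series title, was at 7.11, 6.08, 7.27 and 11.7 CPM in ret/wt and at 27.6, 13.4, 14.3 and 11.9 CPM in ret/ret, so its ret/ret replicate 4 lay just above ret/wt replicate 4.

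Macrophages of the brain's borders have their own markers. Of 9 tested, 0 were non-overlapping, 8 had a log2 fold change below 0, and the median was -0.26, which became 0.08 without ret/wt replicate 4. Of the markers of other white blood cells, only 4 of 20 lymphocyte genes and 5 of 14 neutrophil and monocyte genes passed the filter on low counts, with 0 non-overlapping, and the T-cell gene Cd3e was at 0 in 4 of the 8 libraries. The 6 erythrocyte genes had a median of 1.16, with 5 above 0 and 0 non-overlapping, and of -0.14 without ret/ret replicate 1.

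Of the lysosomal genes 3 of 33 were higher (9.1%), and they were the protease cathepsin S and 2 glycosidases. Ctss was at 66.3, 51.8, 76.5 and 67.9 CPM in ret/wt and at 136, 84.4, 110 and 101 CPM in ret/ret. Man2b1, a lysosomal mannosidase, was barely parted, with 36.8 CPM in the highest ret/wt and 37.2 CPM in the lowest ret/ret library. In the complement list 4 of 15 genes were higher, the 3 chains of C1q and the C3a receptor C3ar1. C1qa ran from 21.6 to 46.2 CPM in ret/wt and from 48.0 to 102 CPM in ret/ret, C1qb from 25.0 to 56.7 and from 56.9 to 113 CPM, and C1qc from 23.9 to 41.4 and from 42.7 to 101 CPM. The genotypes were barely parted in all 3 chains. In each chain ret/ret replicate 1 was far above the other three ret/ret libraries, and the highest ret/wt value was that of replicate 4. Without ret/ret replicate 1 the median of the complement list was 0.22, against 0.55 with it.

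Interferon-response lists had medians above 0, few non-overlapping members and 1 library, ret/ret replicate 1, at the top. Of 30 type I interferon genes 27 were above 0, with a median of 0.59, and 3 did not overlap (10%). Of 16 guanylate-binding and immunity-related GTPase genes 15 were above 0, with a median of 0.80, and 2 did not overlap (12.5%). Ifit3b, an antiviral tetratricopeptide protein, was at 9.13, 8.14, 7.95 and 10.2 CPM in ret/wt and at 48.4, 14, 17.9 and 23 CPM in ret/ret. Gbp3 was at 6.47, 8.03, 5.56 and 6.18 CPM in ret/wt and at 48.3, 12, 9.48 and 14.2 CPM in ret/ret. Gbp6 ran from 3.30 to 8.31 CPM and from 8.64 to 24.4 CPM. Trim30a and Trim34a, ubiquitin ligases of the TRIM family, ran from 2.34 to 3.09 CPM and from 2.08 to 4.63 CPM in ret/wt, and from 3.57 to 8.97 CPM and from 5.38 to 26.1 CPM in ret/ret. Genes of these families have close neighbouring copies, and reads could be split between them. Without ret/ret replicate 1 the medians were 0.23 for the interferon and 0.57 for the GTPase list. The 21 antigen presentation genes had a median of 0.69 with 0 non-overlapping, and 0.28 without that library.

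Promoter sequence did not enter the choice of these genes, although the motifs searched were chosen with their names known. RefSeq promoters on GRCm38.p6, from 250 bases before to 50 bases after each start, were found for 206 of the higher and 85 of the lower non-overlapping genes and for 11198 of the tested genes. The interferon-type motif searched was GAAA, any 2 bases, then GAAA, on both strands, which reads TTTC, any 2 bases, TTTC on the other strand. It was present in 18 of the 206 higher genes (8.74%), 0 of the 85 lower genes and 416 of the 11198 tested genes (3.71%). Of the 30 interferon and GTPase list genes with a promoter 21 held it. The PU.1-type motif searched was GAGGAAGT on both strands, a sequence recognised by the ETS factor PU.1 of myeloid cells. It was present in 15 of the 206 higher genes (7.28%), 1 of the 85 lower genes (1.18%), 379 of the tested genes (3.38%) and 8 of the 42 haematopoietic list genes with a promoter. Neither motif contains the other. A match describes the sequence and is not evidence of binding.

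The promoters below are shown for 3 interferon-response and 2 myeloid signalling genes among the higher set, read in the direction of the gene, with the motif in capitals. The sequences run up to the start, except that of Ifit3b, which ends 60 bases after its first copy of the motif. They lie at chr19:34607709-34607838 (+), chr3:142559939-142560043 (+), chr7:104465194-104465289 (-), chr17:57279029-57279099 (+) and chr1:87620232-87620311 (+) of GRCm38.p6. In Ifit3b the motif occurs as 2 separate copies, and in Gbp3 2 copies overlap in 1 run of capitals. The first copy in Ifit3b starts 188 bases before the gene's start. The motif starts 45 bases before the start of Gbp3, 36 before that of Trim30a, 11 before that of Vav1 and 20 before that of Inpp5d.
Ifit3b: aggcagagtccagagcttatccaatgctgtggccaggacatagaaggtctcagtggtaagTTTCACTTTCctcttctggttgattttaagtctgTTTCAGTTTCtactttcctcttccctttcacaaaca
Gbp3: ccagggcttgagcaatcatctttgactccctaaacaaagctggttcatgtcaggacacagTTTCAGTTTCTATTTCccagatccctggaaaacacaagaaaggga
Trim30a: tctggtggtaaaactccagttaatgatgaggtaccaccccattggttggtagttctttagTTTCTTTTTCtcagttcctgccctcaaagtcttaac
Vav1: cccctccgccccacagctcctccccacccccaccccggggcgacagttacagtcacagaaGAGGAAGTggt
Inpp5d: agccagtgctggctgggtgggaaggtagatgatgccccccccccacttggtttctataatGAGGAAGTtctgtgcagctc

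The values of the last 2 genes were modest. Vav1 was at 2.61, 3.46, 3.54 and 2.47 CPM in ret/wt and at 6.4, 4.63, 4.94 and 3.78 CPM in ret/ret. Inpp5d was at 7.50, 7.70, 5.62 and 6.25 CPM in ret/wt and at 14.4, 23.2, 8.89 and 7.87 CPM in ret/ret.

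Fatty acid and amino acid metabolism also held higher genes. These lists were written around genes whose values had been seen, so their counts are no evidence of a theme. Of 31 genes of fatty acid oxidation and elongation, 7 were higher and 0 lower (22.6%), 28 were above 0, and the median was 0.29. Elovl2, the elongase that makes very long polyunsaturated fatty acids (chromosome 13, 41182381 to 41220405), was at 19.8, 19.5, 24.1 and 17.6 CPM in ret/wt and at 36.5, 38.2, 37.1 and 44.3 CPM in ret/ret. Its log2 fold change was 0.95 ± 0.18 (SE), and no ret/ret library led the group by much. Crot, the peroxisomal carnitine octanoyltransferase, was at 32.6, 33.5, 41.7 and 31.9 CPM in ret/wt and at 62.4, 50, 56.5 and 61.2 CPM in ret/ret. Etfdh, which passes electrons from fatty acid oxidation to ubiquinone, ran from 41.0 to 43.5 CPM and from 55.4 to 63.3 CPM. Acsbg1, an acyl-CoA synthetase of astrocytes, ran from 247 to 316 CPM and from 317 to 653 CPM.

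Breakdown of branched-chain amino acids and propionate held 4 higher genes of 30 (13.3%), and 3 of them lie along the path from valine through propionyl-CoA and succinyl-CoA to succinate. The remaining higher gene was Bckdk, which encodes a kinase that regulates the breakdown and is not a step of it. Aldh6a1, methylmalonate semialdehyde dehydrogenase, ran from 62.0 to 96.2 CPM in ret/wt and from 115 to 165 CPM in ret/ret. Mut, methylmalonyl-CoA mutase, was at 66.2, 59.9, 55.2 and 44.6 CPM in ret/wt and at 120, 84.8, 107 and 94.3 CPM in ret/ret, a log2 fold change of 0.85 ± 0.18 (SE). Suclg2, a subunit of succinyl-CoA ligase, was at 37.1, 51.8, 38.2 and 31.9 CPM in ret/wt and at 61.8, 80.6, 67.9 and 71.0 CPM in ret/ret. The list's median was 0.21, with 20 genes above 0 and 10 below.

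Serine, glycine, glutamate and alanine genes held 7 higher of 21 (33.3%) with a median of 0.18, which was 0.41 without ret/wt replicate 1 and 0.42 without ret/wt replicate 3. Psph, the last enzyme of serine synthesis, ran from 9.04 to 12.3 CPM in ret/wt and from 13.4 to 18.8 CPM in ret/ret. Gpt2, mitochondrial alanine aminotransferase, ran from 56.8 to 77.2 CPM and from 83.7 to 123 CPM. Sdsl, a serine dehydratase-like enzyme, ran from 2.96 to 4.74 CPM and from 5.30 to 10.8 CPM. Slc38a3, the glutamine transporter of astrocytes, ran from 71.2 to 104 CPM and from 113 to 183 CPM. Etnppl, an astrocyte phospholyase, was at 127, 133, 128 and 114 CPM in ret/wt and at 379, 145, 253 and 138 CPM in ret/ret, so replicates 1 and 3 led. Slc1a3, the glutamate transporter GLAST, was at 383, 447, 415 and 442 CPM in ret/wt and at 736, 511, 630 and 468 CPM in ret/ret.

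Several of these genes are astrocyte genes. Of 20 homeostatic astrocyte genes 1 (Slc1a3) did not overlap, the median was 0.13, and the score was 8.01 to 8.28 in ret/wt and 8.0 to 8.63 in ret/ret. Of 24 reactive astrocyte genes 1 was higher and 1 lower. Serpina3n, a secreted protease inhibitor, was at 23.3, 20.8, 18.5 and 20.8 CPM in ret/wt and at 122, 47.3, 43.2 and 28.7 CPM in ret/ret. Fkbp5, a glucocorticoid-induced chaperone, ran from 30.6 to 48.9 CPM in ret/wt and from 20.3 to 30.0 CPM in ret/ret. The reactive astrocyte median was 0.35, and 0.11 without ret/ret replicate 1. The part of astrocyte content in the metabolic differences was not tested.

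Solute carriers, which move nutrients and ions across membranes, had 16 higher (5.82%) and 2 lower (0.73%) among 275 tested Slc genes. In the monocarboxylate transporter family, listed after values were seen, 4 of 12 genes were higher (33.3%), while the family's median was 0.07 and changed sign in 3 alternatives. Slc16a3, the lactate exporter MCT4 (chromosome 11, 120948480 to 120960868), was at 1.11, 1.34, 0.917 and 0.893 CPM in ret/wt and at 9.17, 2.13, 2.40 and 7.45 CPM in ret/ret. Slc16a6 was at 8.74, 11, 8.62 and 5.84 CPM in ret/wt and at 38.9, 15.9, 16.6 and 22.7 CPM in ret/ret. Both were highest in ret/ret replicates 1 and 4. Slc16a4 ran from 1.84 to 3.71 CPM and from 3.88 to 8.25 CPM, and Slc16a9, a carnitine exporter, from 4.83 to 7.90 CPM and from 8.71 to 21.9 CPM. The 21 hypoxia and glycolysis genes had a median of 0.01 with 0 non-overlapping.

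**Figure D4:**
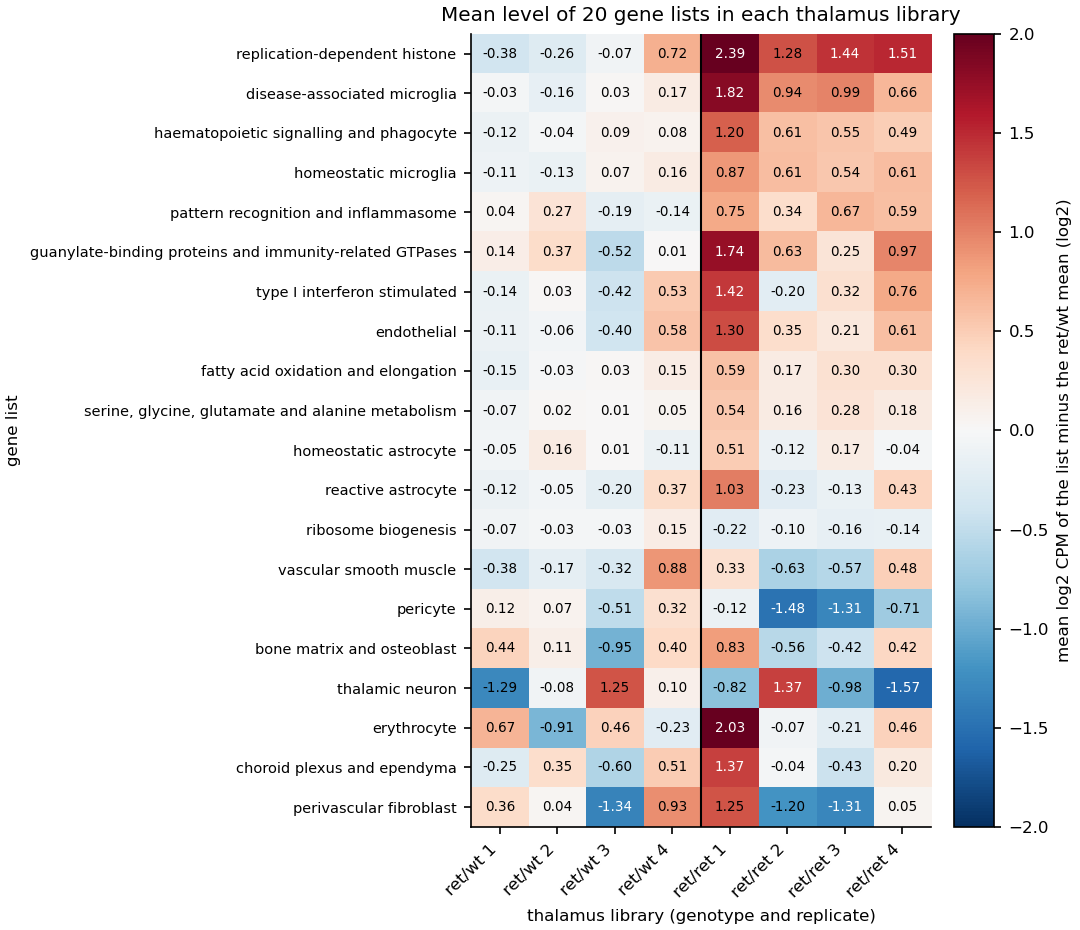
Each cell gives the mean log2 CPM of a gene list in 1 thalamus library minus the mean of the 4 ret/wt libraries, for 20 lists (rows) and 8 libraries (columns), with red above and blue below 0. The histone, microglia, haematopoietic, pattern recognition, GTPase, endothelial, fatty acid and serine rows are red in all 4 ret/ret columns. Pericyte is blue in all 4, though only slightly in replicate 1, and ribosome biogenesis is slightly blue in all 4. Some of these rows overlap between genotypes, among them GTPase, endothelial and pericyte. The interferon, fibroblast, thalamic neuron and erythrocyte rows differ from library to library within a genotype.

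The rule for single genes named several higher genes that fall in no list. B3gnt5, the transferase that starts lacto-series glycolipids, was at 0.343, 0.391, 0.306 and 0 CPM in ret/wt and at 10.8, 1.76, 4.74 and 4.62 CPM in ret/ret. It passed the filter on low counts only through ret/ret libraries, so its non-overlap largely follows from the filter. Ucma, a matrix protein of cartilage that carries many gamma-carboxyglutamate residues, was at 0.557, 0.335, 0.183 and 0.824 CPM in ret/wt and at 4.52, 1.72, 2.45 and 11.2 CPM in ret/ret. Cdh26, a cadherin, ran from 0.300 to 1.0 CPM and from 2.64 to 4.24 CPM, with the ret/ret libraries close together. Prss35, a serine protease-like protein, ran from 2.17 to 2.75 CPM and from 4.63 to 16.6 CPM. Fgfbp1, which releases fibroblast growth factors from matrix, ran from 0 to 2.47 CPM and from 2.75 to 5.93 CPM. Lrrc23, a protein of motile cilia and sperm tails, ran from 0.733 to 3.96 CPM and from 5.83 to 8.84 CPM. The processed pseudogene Gm7334 was barely parted, with a highest ret/wt value of 4.18 CPM and a lowest ret/ret value of 4.59 CPM. Choroid plexus and ependymal genes, which include those of motile cilia, had a median of 0.68, which was -0.06 without ret/ret replicate 1.

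Among the lower genes ribosome biogenesis was the largest group. That list, written after values were seen, held 7 lower and 0 higher genes among 41 (17.1%), with 32 below 0 and a median of -0.13. Nat10, the cytidine acetyltransferase of 18S ribosomal RNA (chromosome 2, 103721256 to 103761270), was at 30.9, 33.1, 28.6 and 60.2 CPM in ret/wt and at 21.6, 15.5, 20.2 and 23.8 CPM in ret/ret. Riok1, a kinase of late 40S subunit assembly, ran from 12.4 to 22.3 CPM and from 10.4 to 11.4 CPM. Wdr75, part of the small-subunit processome, ran from 36.9 to 62.8 CPM and from 27.2 to 33.0 CPM. Surf2 ran from 23.9 to 35.1 CPM and from 18.3 to 23.4 CPM. The others were Riox1, Gtpbp4 and Abt1. Replicate 4 of ret/wt had the highest score for this list and for ribosomal protein genes, and without it the list's median was -0.12. Ribosomal protein genes themselves held 0 of 96 non-overlapping.

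Nuclear pore and chromatin genes, listed in the same way, added a few lower members. Nup133 and Nup107, which sit in the Y-shaped scaffold of the pore, were 2 of 23 (8.7%). Nup133 ran from 35.9 to 51.3 CPM in ret/wt and from 22.4 to 29.7 CPM in ret/ret, and Nup107 from 12.1 to 16.9 CPM and from 7.34 to 12.1 CPM, its groups touching at that rounding. In the chromatin and cohesin list 3 of 29 were lower and 1 higher. Mbd5, a methyl-CpG-binding domain protein, ran from 55.8 to 82.8 CPM and from 36.2 to 44.8 CPM. Smc1a, a core cohesin subunit, was at 131, 122, 110 and 175 CPM in ret/wt and at 81.9, 81.2, 95.5 and 96.8 CPM in ret/ret. Setd2, the histone H3 lysine methyltransferase of transcribed genes, ran from 89.5 to 150 CPM and from 67.1 to 83.7 CPM.

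Single lower genes with the largest differences had varied roles. Tdrd6, a tudor domain protein of the germ line (chromosome 17, 43615335 to 43630299), was at 6.6, 9.82, 3.67 and 1.92 CPM in ret/wt and at 0.423, 0.927, 1.55 and 1.57 CPM in ret/ret. Vrk2, a vaccinia-related kinase, ran from 2.08 to 6.36 CPM and from 1.36 to 1.62 CPM. Itga7, a laminin receptor subunit (chromosome 10, 128933818 to 128958282), was at 20.3, 17.7, 15.1 and 21.2 CPM in ret/wt and at 9.55, 9.27, 9.68 and 6.30 CPM in ret/ret, a log2 fold change of -1.09 ± 0.22 (SE). Cyp4f15, a fatty acid hydroxylase, ran from 5.01 to 14.2 CPM and from 0.945 to 3.81 CPM. Slc26a7, an anion exchanger, ran from 2.85 to 6.6 CPM and from 0.949 to 2.83 CPM. Nrros, which presents latent TGF-beta on microglia, was at 4.07, 12.6, 5.75 and 5.01 CPM in ret/wt and at 3.76, 3.10, 2.55 and 3.20 CPM in ret/ret, against the direction of the other microglial genes. Bdkrb2, the bradykinin receptor, ran from 3.35 to 4.64 CPM and from 0.899 to 2.78 CPM.

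The potassium channel list had 1 non-overlapping member, and its score overlapped between genotypes (5.51 to 6.29 in ret/wt and 5.37 to 6.19 in ret/ret). Of 32 tested, 26 had a log2 fold change below 0, with a median of -0.23 that was 0.0 without ret/wt replicate 3. Kcnab3, a beta subunit of voltage-gated channels, was at 102, 81.7, 114 and 108 CPM in ret/wt and at 64.3, 54.4, 67.0 and 48.0 CPM in ret/ret, a log2 fold change of -0.80 ± 0.18 (SE). Kcnj14, an inward rectifier outside that list, ran from 3.37 to 4.67 CPM and from 1.40 to 2.63 CPM. Six3, a transcription factor of the ventral forebrain, was at 5.53, 5.97, 16.2 and 6.32 CPM in ret/wt and at 3.29, 3.15, 5.49 and 1.52 CPM in ret/ret. It was the only non-overlapping gene of the thalamic and GABAergic neuron lists. The thalamic neuron median of -0.23 was above 0 without any 1 of ret/wt replicate 3 (0.18) and ret/ret replicates 1 (0.01), 3 (0.08) and 4 (0.06), and the 22 synaptic genes had a median of -0.18 with 0 non-overlapping. The thalamic neuron score varied within both genotypes, and the part of neuronal content in the potassium channel values was not tested.

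The phosphate handling and bone matrix lists held no non-overlapping gene, while the osteoclast list held 2. Ucma, described above, lies outside all of these lists. The 18 genes of phosphate handling and inherited brain calcification had a median of -0.03 with 0 non-overlapping, and the 17 bone matrix and osteoblast genes had a median of -0.07 with 0. Spp1, the mineral-binding protein osteopontin, was at 45.4, 43.7, 40.1 and 53.9 CPM in ret/wt and at 75.0, 45.1, 35.6 and 420 CPM in ret/ret. The groups overlapped, and the high mean rests on replicate 4. Among 17 osteoclast genes 1 was higher (Csf1r, a receptor that microglia share) and 1 lower. The lower one was Ocstamp, needed for fusion of osteoclast precursors, at 1.47 to 2.54 CPM in ret/wt and 0.371 to 0.892 CPM in ret/ret. Myelin genes (23 tested, median 0.11), basement membrane genes (25 tested, median 0.05) and nuclear-encoded respiratory chain genes (30 tested, median -0.05) held 0 non-overlapping genes each. In all, 27 of the 50 first lists held none.

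Cortex of the same animals shows which of these differences also appeared where no calcification was dissected. Of the 283 higher genes 264 could be tested in cortex, 219 of them (83.0%) were above 0 there, and 37 (14%) were non-overlapping and higher, against 1.8% of the 14288 genes tested in cortex. Of the 119 lower genes 112 could be tested, 71 (63.4%) were below 0, and 6 (5.36%) were non-overlapping and lower, against 0.644% of all genes. Over all genes in cortex 51.8% were above 0. The regions share animals, so these counts are not independent of the thalamus values.

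Histone genes were non-overlapping and higher in 7 of 9 tested in cortex (median 1.46), endothelial genes in 7 of 21 (0.68), interferon genes in 8 of 26 (0.87) and GTPase genes in 7 of 16 (1.12). Pericyte genes were non-overlapping and lower in 5 of 17 (-0.60). In cortex Edn1 had a mean of 2.79 CPM in ret/wt (SD 0.678, n = 4) and 22.9 CPM in ret/ret (SD 6.54, n = 4), and Eng was at 15.9 ± 5.30 and 52.9 ± 24.1 CPM (SD, n = 4). By contrast, 0 of 53 haematopoietic genes (0.27), 1 of 14 homeostatic microglia genes (0.15) and 0 of 41 ribosome biogenesis genes (0.04) were non-overlapping in cortex. The metabolic lists were mixed. In cortex 0 of 21 serine and glutamate genes were non-overlapping, with a median of 0.18 in both regions. Fatty acid genes were non-overlapping and higher in 4 of 31 (0.23, against 0.29 in thalamus). Branched-chain and propionate genes were so in 2 of 30 (0.23, against 0.21 in thalamus). Lists written from thalamus values favour thalamus, so these counts do not test a difference between regions.

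Some single genes had group means in the opposite order in cortex, or means that lay close together. Lpl was at 31.1 ± 11.9 CPM in ret/wt and 13.5 ± 6.96 CPM in ret/ret cortex (SD, n = 4). Tdrd6 was at 0.519 ± 0.558 CPM and 2.64 ± 2.82 CPM, and Lrrc23 at 2.40 ± 1.75 and 1.19 ± 1.08 CPM (SD, n = 4). Slc16a3 was at 2.40 ± 0.931 and 2.43 ± 1.56 CPM, and Itga7 at 8.76 ± 3.69 and 10.7 ± 9.82 CPM (SD, n = 4). The interaction of genotype and region was fitted over 15286 genes with a block for the animal. In edgeR this gave 0 genes after Benjamini-Hochberg adjustment and 243 by the unadjusted p, both at 0.05, so no single gene was shown to differ between regions.

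**Figure D5:**
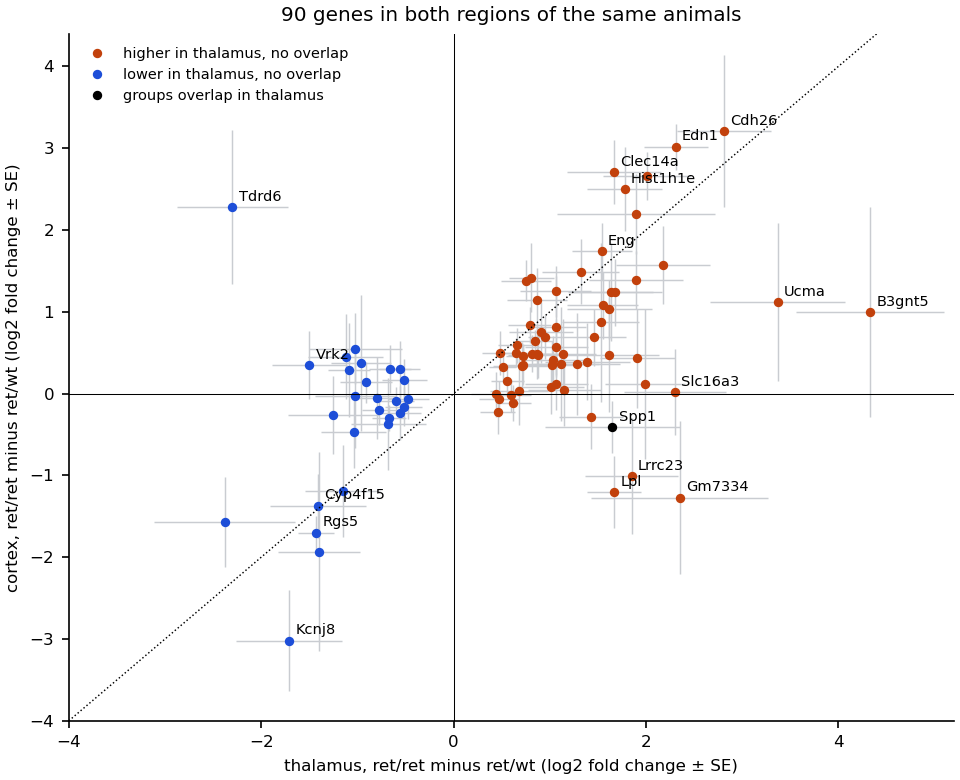
Each of 90 genes named in the text and tested in both regions is placed by its log2 fold change (ret/ret minus ret/wt) in thalamus (x axis) and in cortex (y axis), with standard errors as grey bars and the line of equal change dotted. Edn1, Eng, Hist1h1e, Cdh26 and, below 0, Rgs5 lie near that line, Kcnj8 lies further below 0 in cortex than in thalamus, whereas Slc16a3 lies near 0 in cortex and Lpl, Lrrc23 and Tdrd6 lie on the opposite side of 0.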

How the data were processed

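RNA from dissected thalamus and cortex of 8 mice was poly(A)-enriched and made into stranded libraries, per the labels' protocols. The deposited values are expected counts, that is reads per gene estimated by the authors with kallisto 0.44.0 on GRCm38.p6, per the submitters' processing notes, with the annotation release not given in the sources used here. The table holds 21804 genes, of which 21581 matched a symbol in GENCODE M21 on GRCm38 by Ensembl identifier. Coordinates are from that annotation, and none of the columns lacked a sample.

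Expected counts were rounded, filtered with filterByExpr (minimum count 10, minimum total 15), scaled by TMM and fitted with edgeR 4.0.16 in R 4.3.3 (quasi-likelihood, Benjamini-Hochberg adjustment over all tested genes, threshold 0.05) on the 8 thalamus libraries alone. The cortex libraries were fitted apart, and the genotype-by-region term on all 16 libraries with a block for the animal. Levels are CPM with TMM factors, except for Ddx3y, the thalamic markers and the neighbouring-tissue markers, which were divided by the library total alone. Overlap was judged on log2 CPM with a prior count of 1. A list's score is the mean log2 CPM of its tested genes. Standard errors come from the quasi-likelihood F statistic. DESeq2 1.42.0 and limma-voom (limma 3.58.1) were run as alternatives, and the fit was tested on simulated data. Tables and plots used Python 3.11.15, pandas 2.3.3, numpy 2.4.6 and matplotlib 3.10.9.

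The total of a thalamus library was 14673593 to 21776759 counts, and 3 counts corresponded to 0.138 to 0.204 CPM, a floor that covers counting error only. Each library is from 1 animal and animals differ between genotypes, so p-values measure the spread between animals. Library pairs did not hold identical values. The residuals of same-numbered ret/wt and ret/ret libraries correlated at -0.089 to 0.009, and the labels give them different animal identifiers.

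Named genes had to be non-overlapping and were ranked by log2 fold change, taking 15 per direction, from genes that have a symbol, an unadjusted p under 0.05 and an average level of log2 CPM 1 or more. Added to these were up to 4 non-overlapping members of each list with the smallest p, or the first 3 members where a list had none, and Trem2 and Rgs5. Ddx3y served only to check libraries. The text omits some of the genes this yields, and it adds Hist2h2aa1, Etnppl, Nod2, Vav1, Inpp5d, Syk, Hmgb2 and list members given without values, all chosen after values were seen. The lists and members were chosen with earlier results of these data known, and 9 lists were written after the values of this comparison were seen. Of the 979 genes written in the first lists, 858 were tested, 27 matched no symbol, and the others did not pass the filter on low counts. Alternatives were other scalings, filters, tests and priors, a replicate block, and leaving out libraries or mitochondrial genes. Sequences are from RefSeq promoters on GRCm38.p6.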

Additional observations from a re-analysis of the deposited data

Results flagged for a closer look

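In 24 of 192 checks, each on the 4 libraries of 1 genotype for 1 gene named in the text, the highest or lowest library stood apart from the other three by more than Dixon's critical gap. Chance alone flags about 1 in 20 groups of independent, normally distributed values. The checks used CPM without a log, which need not be normal, so that rate may not hold. Genes that move together are not independent. Replicate 1 of ret/ret was the high library for Trem2 (27.6 CPM against 11.9 to 14.3), Casp1 (1.98 against 1.25 to 1.3), C1qa (102 against 48.0 to 49.2), C1qb (113 against 56.9 to 61.8), C1qc (101 against 42.7 to 49.3), Gbp3 (48.3 against 9.48 to 14.2) and Hist1h1e (12.8 against 5.59 to 6.19). Replicate 4 of ret/ret was high for Spp1 (420 CPM against 35.6 to 75.0) and low for Itga7 (6.3 against 9.27 to 9.68).

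Among ret/wt libraries replicate 3 was high for Cst7 (0.122 CPM against 0 in the others), P2ry14 (8.92 against 1.62 to 2.06), Cyp4f15 (14.2 against 5.01 to 5.69), Six3 (16.2 against 5.53 to 6.32), Crot (41.7 against 31.9 to 33.5) and Nod2 (1.71 against 1.5 to 1.51). Replicate 3 is also the ret/wt animal with Y-linked reads. Replicate 4 was high for Hist1h2ac (2.13 CPM against 0.600 to 0.856), Nat10 (60.2 against 28.6 to 33.1), Cox4i2 (3.64 against 1.41 to 1.67), Slc7a5 (64.2 against 52.1 to 54.0), C1qc (41.4 against 23.9 to 25.6), Ocstamp (2.54 against 1.47 to 1.62) and Setd2 (150 against 89.5 to 90.6). Replicate 2 was high for Cdh26 (1.0 CPM against 0.300 to 0.367) and replicate 1 for Hist2h2aa1 (4.24 against 2.13 to 2.2).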

How the results depend on the processing

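The count of genes at an adjusted p under 0.05 was 0 under every alternative except DESeq2, which gave 37, and this included each of the 8 fits that left out 1 library. By the unadjusted p, the higher genes (451) ran from 260 without ret/ret replicate 1 to 907 without ret/wt replicate 4. The lower genes (130) ran from 107 to 470 over the same fits, with 470 without ret/wt replicate 4, 316 without ret/ret replicate 2, and 221 with no filter on low counts. The non-overlapping higher genes (283) ran from 368 to 959 and the lower (119) from 194 to 621 when 1 library was left out, since 4 against 3 libraries are parted more easily than 4 against 4. The highest pair was without ret/wt replicate 4 and the lowest without ret/ret replicate 1, and the lower count grew by over 1.5 times without any 1 of the 8. Without both animals with Y-linked reads they were 818 and 624. Upper-quartile scaling kept 216 of the 283 and 91 of the 119, and DESeq2 size factors kept 278 and 115. With a replicate block, which takes equal numbers in the labels as pairs although they are different animals, 343 genes were higher and 94 lower by the unadjusted p and 0 passed adjustment. No non-overlap count can be given under the block. Of the 96 genes run under each alternative (every gene named with values except the tissue markers and Ddx3y), 0 changed direction in any alternative, and 30 passed the adjusted p in DESeq2 and 0 in any other fit. Nearly all of these genes were named because their groups did not overlap. Their directions could therefore hardly change, and the count of 0 is no evidence of robustness. Of the 59 lists, 25 changed the sign of their median in at least 1 alternative. Pericyte, endothelial, microglia, haematopoietic, complement, interferon, GTPase, histone, fatty acid and ribosome biogenesis medians kept theirs in all of them. The list of mitochondrially encoded genes has no value where those genes were left out.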

Other observations

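Neighbouring-tissue markers varied between libraries of the same genotype. Ttr, the main transcript of choroid plexus, ran from 1.66 to 53.1 CPM in ret/wt and from 0.874 to 55.8 CPM in ret/ret. Pou4f1, a transcription factor of the habenula, which lies against the thalamus, ran from 4.51 to 43.7 CPM and from 0.405 to 27.2 CPM. Adora2a, the adenosine receptor of striatal neurons, ran from 1.07 to 1.92 CPM in ret/wt and from 1.38 to 14.1 CPM in ret/ret. The dopamine receptors of these neurons did not share that rise. Drd1 ran from 3.31 to 7.59 CPM and from 1.17 to 9.48 CPM, and Drd2 from 13.9 to 23.6 CPM and from 16.1 to 29.8 CPM. The 14 striatal neuron genes had a median log2 fold change of 0.05 with 0 non-overlapping. The haemoglobin gene Hbb-bs ran from 1.43 to 14.3 CPM and from 3.36 to 48.6 CPM.

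Genes named as N-acetyltransferases fell on both sides. Of 13 tested Nat genes 3 were non-overlapping and higher (Nat1, Nat8f4 and Nat8f5) and Nat10 was lower, a grouping by symbol that was noticed after the values were seen. Zinc finger genes held 3 higher and 3 lower among 366 tested (0.82% each), beside 1.92% higher and 0.806% lower over all genes.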
